A study of Mus musculus with 44 samples.

Results

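The 35 genes described here are the transcription factor gene Atf4 and genes of the amino-acid stress response that ATF4 is known to control, followed through mouse fibroblasts and mouse neurons. They were chosen by name: every row of the deposited count tables whose gene name was on the list was taken, which gave 36 of the 54532 rows of each table, because the name Ddit3 stands on 2 rows. The second Ddit3 row (ENSMUSG00000116429) had 0 counts in all 44 libraries, so Ddit3 below is the row ENSMUSG00000025408. By role, the genes were grouped into 5 transcription factors, 8 feedback and stress effectors, 10 enzymes of amino-acid and one-carbon metabolism, 7 amino-acid transporters and 5 cytosolic tRNA synthetases.

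When a cell runs short of amino acids, or meets another stress that activates an eIF2 kinase, phosphorylation of the initiation factor eIF2 lowers general translation while the Atf4 mRNA is translated better. ATF4 then pairs with C/EBP proteins at short amino-acid response elements and turns on genes that import, make and charge amino acids, together with genes that end the response or lead to cell death. Because ATF4 is controlled largely at translation, the level of its mRNA and the activity of its protein can differ, and the RNA counts used here show the mRNA only.

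The study measured polyadenylated RNA in 11 groups of 4 libraries, and its title names FRMD5, which encodes a FERM-domain protein, and the glucocorticoid receptor. The fibroblast line L929, derived from mouse connective tissue, gave 16 libraries: a control group, and groups with FRMD5 isoform 2 as the full-length protein, as delta-IDR combined domain (delta-IDR below) and as delta-coiled-coil and -LCDs (delta-CC-LCD below). Primary cortical neurons of mice gave 28 libraries: control peptide at 100 µM alone, the same peptide with DEX (dexamethasone, a synthetic glucocorticoid), and an interfering peptide at 1, 3, 10, 30 or 100 µM, always with DEX. Treatment lasted 4 hours. The series' design text says that L929 cells with FRMD5 constructs were treated with DEX, and no source used here says whether the L929 control group was, so DEX and construct cannot be told apart in comparisons with that group. The vector and promoter of the constructs, the DEX concentration, the peptide sequences and the age of the animals were not stated in the labels. Nor do the labels tie libraries within a group to different cultures or animals, so p-values measure only the spread between libraries, which may be technical. In such bulk RNA, fewer cells of a type and less RNA per cell cannot be told apart.

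Promoter sequence is shown for 6 members because they are among those with the largest changes below and because each holds the letters TGATGNAA, the core of the C/EBP-ATF response element, on either strand. A window from 250 bases before to 50 bases after the start site was found in RefSeq (GRCm38.p6) for 28 of the 35 members, and 10 of these 28 (35.7%) held the motif, against 4.51% of all 27025 genes with such a window. The stricter TGATGCAA, whose matches are all matches of TGATGNAA too, stood in 6 of the 28 (21.4%) and in 1.03% of all genes. The other 4 members with a match were Gars, Nupr1, Aars and Slc1a4. The matched letters are in capitals, and those that begin with TT are the motif read on the opposite strand.
Trib3: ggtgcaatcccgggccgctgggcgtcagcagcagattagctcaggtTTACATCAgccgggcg
Chac1: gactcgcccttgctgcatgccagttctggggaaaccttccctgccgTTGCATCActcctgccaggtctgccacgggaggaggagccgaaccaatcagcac
Asns: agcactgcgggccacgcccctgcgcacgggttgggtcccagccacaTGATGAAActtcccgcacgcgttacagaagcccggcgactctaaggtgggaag
Pck2: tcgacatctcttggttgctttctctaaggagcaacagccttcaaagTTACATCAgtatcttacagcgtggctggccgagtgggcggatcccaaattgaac
Slc7a11: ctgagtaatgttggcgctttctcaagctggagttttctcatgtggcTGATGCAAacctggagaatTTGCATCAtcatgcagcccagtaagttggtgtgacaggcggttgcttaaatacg
Vldlr: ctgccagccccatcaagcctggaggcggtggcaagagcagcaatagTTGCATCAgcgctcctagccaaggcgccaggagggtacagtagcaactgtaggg
All run 5′ to 3′ along the gene's own strand. The Trib3 stretch (chr2:152344031-152344092, minus strand) held its match 14 bases past the start site, and the other matches lay before the start. That of Asns (chr6:7693180-7693278, minus strand) began 23 bases before the start, that of Pck2 (chr14:55540117-55540216, plus strand) 103 bases, that of Chac1 (chr2:119351003-119351102, plus strand) 193 bases and that of Vldlr (chr19:27216774-27216873, plus strand) 200 bases. Slc7a11 (chr3:50443607-50443725, minus strand) held 2 matches, at 66 and 47 bases before the start, facing opposite ways. A match is a string of letters and not a measured binding site.

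The 16 L929 libraries held 17211270 to 18313407 counts each, and the 28 neuron libraries 13685236 to 17083701. Levels are given in CPM, TMM-scaled counts per 1000000 counts, and the tables of L929 and neurons were scaled apart. A gene was called changed at an edgeR quasi-likelihood p below 0.05 after Benjamini-Hochberg adjustment over all genes tested. The summed level of 8 neuron markers was 2746 to 3261 CPM in the neuron libraries, with every marker detected, and at most 1.67 CPM in L929. Neuron libraries also held markers of dividing progenitors (1503 to 1815 CPM in sum over 6 genes), fibroblasts (643 to 759 CPM over 7), astrocytes (387 to 469.9 CPM over 8), oligodendrocyte lineage (79.3 to 109 CPM over 8), endothelial and mural cells (122 to 157 CPM over 6) and microglia (21.3 to 31.4 CPM over 7), and S100a4 was at 0 in the fibroblast list. The fibroblast line L929 itself summed to 203 to 439.5 CPM on the astrocyte list and 233 to 331 CPM on the oligodendrocyte list. On the progenitor list it summed to 1246 to 1683 CPM. These 3 lists therefore do not by themselves identify those cells.

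Per kilobase of the gene length deposited with the counts, the most abundant members in the L929 control group were Atf5 at 197 CPM per kb, the seryl-tRNA synthetase Sars at 183, the asparaginyl-tRNA synthetase Nars at 141 and Atf4 at 129. How that length was defined is not stated, and it need not be that of the transcript present. The lowest with any counts were Slc7a11 at 1.37 and Chac1 at 2.67 CPM per kb. Their order depends on the lengths, 13922 and 1637 bases, and in CPM Slc7a11 stood above Chac1. Stc2 had 0 counts in all 16 L929 libraries, which allows up to 3 counts in each, and was therefore not tested there. In neurons with control peptide and no DEX, Atf4 led at 112 CPM per kb, ahead of Nars at 87.3 and Gars at 67.3, and Nupr1 was lowest at 0.364.

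A pattern among the neuron libraries bears on every neuron result. Within each neuron group, libraries 1 and 3 resembled each other in these genes, as did libraries 2 and 4, and the direction of the gap between the pairs alternated from group to group. Of 34 members with a mean of at least 1 CPM, libraries 1 and 3 both stood above libraries 2 and 4 for 22 without DEX, 31 at 1 µM, 29 at 10 µM and 33 at 100 µM, with 0 in the opposite order. Libraries 2 and 4 both stood above 1 and 3 for 29 with control peptide and DEX, 31 at 3 µM and 33 at 30 µM, again with 0 in the opposite order. Among all 15393 neuron genes at this level, each of the 2 orders, counted separately, held for 17.7% to 34.1% of genes in a group. The median gap between the pairs was 0.45 on the log2 scale over the members at 100 µM, against a gap within pairs of 0.07, while over all genes it was 0.10. In L929 the full-length group had the same pairs, without a common direction: 11 members stood in the first order and 19 in the second, and over all genes the chi-square per degree of freedom was 3.84 to 3.94 within the pairs and 8.66 to 10.5 between them. The 2 orders held 13 and 6 members in the L929 control group, 2 and 10 with delta-IDR and 1 and 6 with delta-CC-LCD. Neuron libraries of a pair still differed by more than sampling noise, with a chi-square of 2.14 to 4.52 per degree of freedom, and were counted separately. Counts of calls are therefore given beside a fit in which the 2 pairs of every group were summed, which leaves 2 units a group. The labels do not say what the library numbers stand for.

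**Figure D1:**
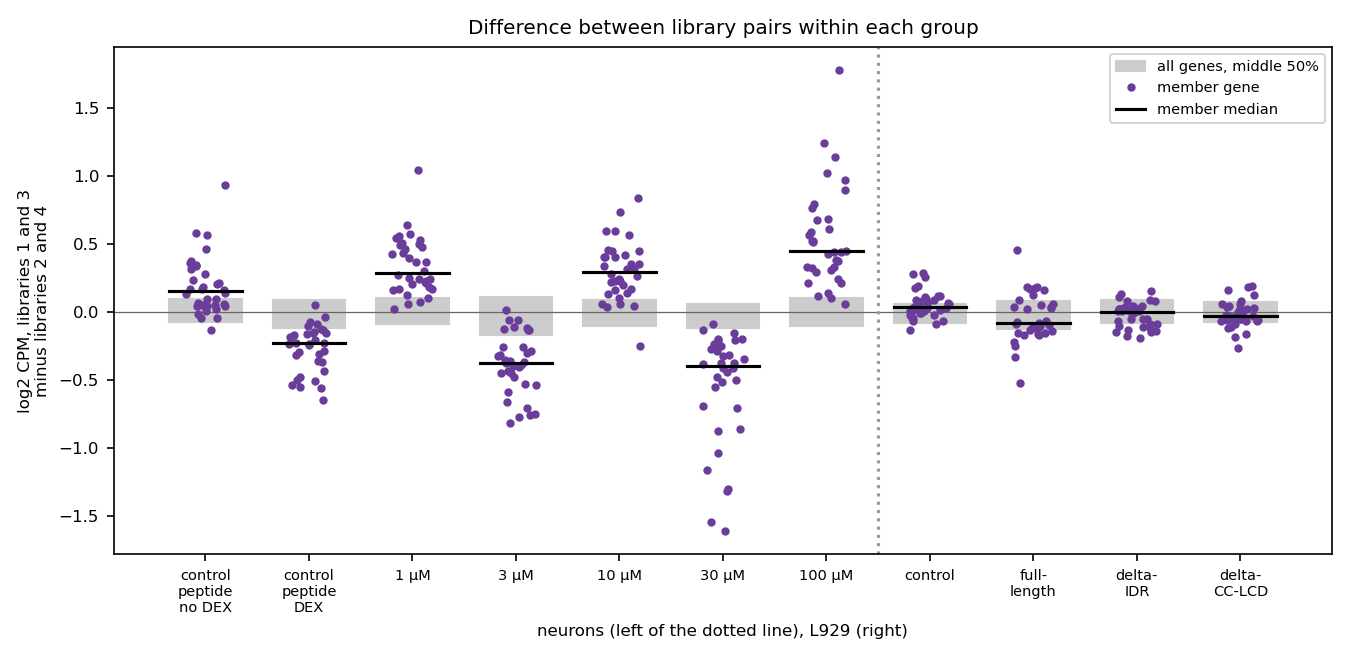
Difference in log2 CPM between the mean of libraries 1 and 3 and that of 2 and 4, by group (vertical axis), with a point per member, a black mark at the members' median and a grey band over the middle 50% of all genes. In the 7 neuron groups the members' medians lie alternately above and below 0, reaching 0.45 in size at 100 µM.

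All 3 FRMD5 constructs went with a mixed pattern in L929 cells. The cystine transporter gene Slc7a11, the transcription factor gene Cebpb and the cationic amino-acid transporter gene Slc7a1 were higher than in control with every construct, while Ddit3, which encodes the stress factor CHOP, and Trib3, which encodes a pseudokinase that restrains ATF4, were lower. Of the 34 members tested, the full-length construct gave 13 higher and 11 lower than control (24 called, 70.6%, against 59.1% of all 14118 genes tested, 30.3% higher and 28.7% lower). For delta-IDR the counts were 21 higher and 12 lower (33 called, against 64.4% of all genes, 32.8% higher and 31.6% lower) and for delta-CC-LCD 16 higher and 12 lower (28 called, against 64.6%, 31.9% higher and 32.7% lower). The members' median log2 change was 0.05, 0.32 and 0.07 in that order, and that of all genes lay between -0.02 and -0.01. The 4 libraries of the 2 groups did not overlap for 23, 31 and 26 members, against 53.7%, 58.8% and 59.4% of all genes. These counts stand on a high background, in which 59.1% to 64.6% of all genes passed. In pair sums 22, 32 and 28 members were called, against 50%, 55.4% and 56.1% of all genes. In all, 13 members were higher and 9 lower than control with all 3 constructs, which share that control group. The share of all genes called in the same direction with all 3 was not counted, so this agreement cannot be set against a background.

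**Figure D2:**
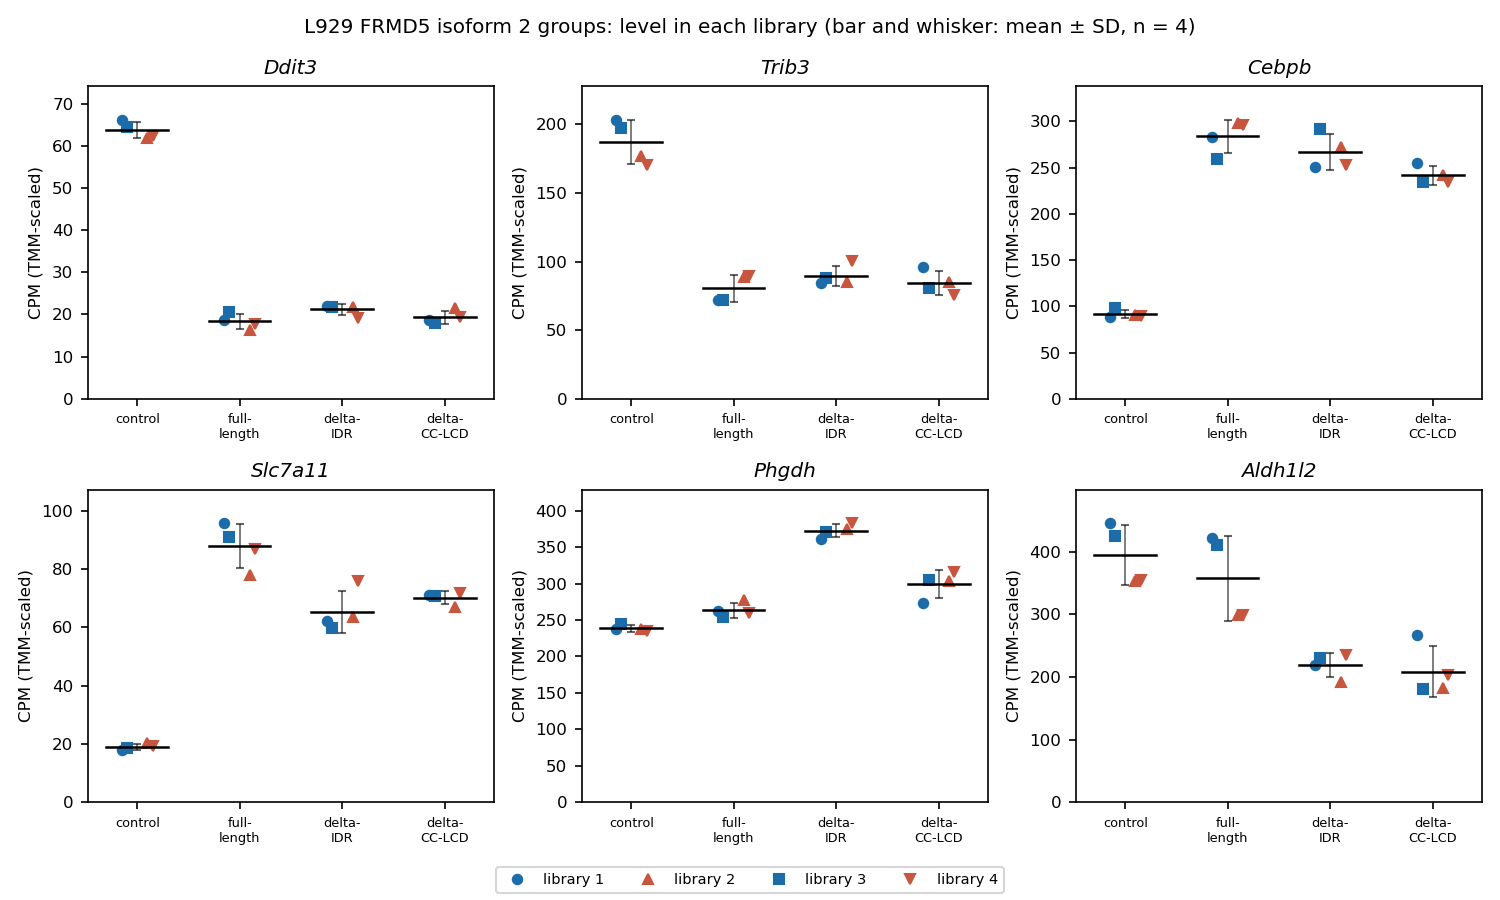
CPM of Ddit3, Trib3, Cebpb, Slc7a11, Phgdh and Aldh1l2 in each of the 16 L929 libraries (points), with bars and whiskers for the mean ± SD of 4 libraries per group. Ddit3 lies at 61.9 to 66.2 CPM in control and at 16.4 to 21.9 CPM in every construct library, and Phgdh is highest with delta-IDR.

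Among the transcription factors, Atf4 itself stood at 297, 302, 322 and 295 CPM in control libraries 1 to 4 and at 361, 392, 355 and 391 CPM with the full-length construct. The mean was 436 ± 15.2 CPM with delta-IDR and 404 ± 28.3 CPM with delta-CC-LCD (SD, n = 4). No construct library overlapped the control libraries, and the log2 change against control was 0.30 ± 0.05 (edgeR adjusted p = 1.5e-06) for full-length, 0.52 for delta-IDR and 0.41 for delta-CC-LCD. Ddit3 was at 66.2, 61.9, 64.5 and 62.3 CPM in control and at 18.6, 16.4, 20.6 and 17.7 CPM with full-length. With delta-IDR it was at 21.9, 21.8, 21.9 and 19.2 CPM and with delta-CC-LCD at 18.6, 21.5, 18.0 and 19.4 CPM. Every construct library lay below every control library, and Ddit3 fell by 1.80 ± 0.07 (SE) on the log2 scale with full-length (edgeR adjusted p = 7.28e-20), by 1.59 with delta-IDR and by 1.72 with delta-CC-LCD. Cebpb, a C/EBP partner of ATF4, was at 88.2, 90.9, 98.0 and 89.3 CPM in control and 283, 298, 259 and 296 CPM with full-length, a log2 change of 1.63 ± 0.05 (edgeR adjusted p = 8.64e-22). It was 267 ± 19.0 CPM with delta-IDR and 241 ± 9.82 CPM with delta-CC-LCD, in both above all control libraries. Cebpg, another C/EBP partner of ATF4, went from 109 ± 1.10 CPM in control to 173 ± 8.01 CPM with full-length (log2 change 0.67). Atf5, a related factor under the same translational control, was lower in each construct, at 346 ± 11.5 CPM with full-length against 392 ± 3.19 CPM in control (log2 change -0.18).

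The feedback and stress effectors were mostly lower than control. Trib3 was at 203, 177, 197 and 170.4 CPM in control and at 71.7, 88.4, 71.9 and 89.5 CPM with full-length, a log2 change of -1.22 ± 0.10 (edgeR adjusted p = 3.12e-08). It was at 84.3, 85.2, 87.8 and 101 CPM with delta-IDR and at 95.7, 85.2, 80.4 and 75.5 CPM with delta-CC-LCD. All construct libraries lay below all control libraries. Ppp1r15a, which encodes GADD34, the phosphatase subunit that restores eIF2, had 45.4, 34.7, 38.3 and 33.0 CPM in control and 25.6, 23.3, 22.1 and 18.6 CPM with delta-CC-LCD, where its log2 change was largest at -0.76, against -0.51 with full-length and -0.63 with delta-IDR. Vldlr, a lipoprotein receptor gene, rose with every construct, from 181 ± 8.07 CPM in control to 354 ± 10.0 CPM with full-length, 261 ± 15.1 CPM with delta-IDR and 338 ± 20.7 CPM with delta-CC-LCD. The leucine sensor gene Sesn2 had a log2 change of -0.38 with full-length and -0.28 with delta-IDR, and -0.15, not called, with delta-CC-LCD. The delta-IDR call of Sesn2 ended when any of control libraries 2, 3 and 4 or delta-IDR libraries 2, 3 and 4 was left out. Both calls of Sesn2 were lost in pair sums. Its full-length libraries 1 and 3 (35.1 and 32.4 CPM) stood below libraries 2 and 4 (47.7 and 48.4 CPM). Nupr1, a stress-induced chromatin protein gene, was slightly lower in each construct (-0.15, -0.20 and -0.43 on the log2 scale for full-length, delta-IDR and delta-CC-LCD). Its full-length call ended with DESeq2, in pair sums, and without control library 1 or 3 or full-length library 1 or 2. Chac1, which degrades glutathione, was scarce in L929 at 4.37 ± 0.904 CPM in control. It was called higher with delta-IDR alone, at 5.74 ± 0.711 CPM (log2 change 0.40 ± 0.16 (edgeR adjusted p = 0.0336)), and that call ended with DESeq2 and without control library 1 or 4 or delta-IDR library 1 or 2. Eif4ebp1, which encodes the translational repressor 4E-BP1, was lower with delta-IDR (-0.28) and delta-CC-LCD (-0.29) and not called with full-length (0.08).

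Of the 10 enzymes, Mthfd2, a mitochondrial folate enzyme, was among the larger rises, from 96.4 ± 2.72 CPM in control to 137, 169.7, 153 and 162 CPM in the full-length libraries, a log2 change of 0.69 ± 0.05 (edgeR adjusted p = 5.85e-12). Its change was 0.86 with delta-IDR and 0.81 with delta-CC-LCD. Pck2, the mitochondrial phosphoenolpyruvate carboxykinase, was at 221, 206, 219 and 204 CPM in control and 135, 151, 137 and 137 CPM with full-length, a fall of 0.60 on the log2 scale. Asns, asparagine synthetase, rose with each construct, by 0.35, 0.63 and 0.44 on the log2 scale, and Gpt2, an alanine aminotransferase, was lower with each (-0.20, -0.20 and -0.38). The serine-synthesis genes Phgdh, Psat1 and Psph were higher than control with delta-IDR, by 0.64, 0.21 and 0.68. With full-length, the change of Phgdh was 0.14, and those of Psat1 (0.05) and Psph (0.14) were not called. Shmt2, which makes glycine from serine in mitochondria, was called with delta-IDR alone (0.18, against 0.01 with full-length and 0.07 with delta-CC-LCD). Cth, the last enzyme of cysteine synthesis, changed by 0.61 with delta-IDR and by 0.18 with delta-CC-LCD, the latter lost without control library 1 or 2 or delta-CC-LCD library 2 or 4. Aldh1l2, another mitochondrial folate enzyme, stood at 446, 354, 425 and 356 CPM in control and at 423, 299, 410.3 and 299 CPM with full-length, where the groups overlapped, but at 220.0, 192, 231 and 234 CPM with delta-IDR and 268, 183, 181 and 203 CPM with delta-CC-LCD, below every control library. Its log2 change against control was -0.85 with delta-IDR and -0.92 with delta-CC-LCD.

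Among the transporters, Slc7a11, which imports cystine, had the largest change of any member: 18.1, 20.5, 18.5 and 19.3 CPM in control against 95.9, 77.9, 90.9 and 86.9 CPM with full-length, a log2 change of 2.2 ± 0.07 (edgeR adjusted p = 1.51e-21). With delta-IDR it was at 62.2, 63.5, 59.7 and 76.0 CPM and with delta-CC-LCD at 71.2, 67.2, 70.7 and 71.9 CPM, in each case above every control library. Slc7a1, which imports arginine and lysine, was at 211, 215, 208 and 207 CPM in control and 462, 486, 441 and 479 CPM with full-length (log2 change 1.15), with 1.17 for delta-IDR and 0.94 for delta-CC-LCD. Slc7a5, the light chain of the large neutral amino-acid exchanger, rose by 0.38, 0.65 and 0.43, while its heavy chain Slc3a2 changed by 0.06 (not called), 0.24 and 0.12. The neutral amino-acid transporter gene Slc1a4 was lower with each construct (-0.35, -0.35 and -0.25). Slc6a9, which encodes the glycine transporter GlyT1, was lower with full-length (-0.42) and delta-CC-LCD (-0.69) and was the only member not called for delta-IDR (-0.07). Slc7a3, another cationic transporter gene, was called for delta-IDR alone (0.40, against -0.11 and -0.05).

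Of the 5 synthetases, Gars, Nars and Wars, which charge glycine, asparagine and tryptophan tRNAs, rose with every construct. With full-length, Gars went from 316 ± 6.39 to 416 ± 12.2 CPM (log2 change 0.40), Nars changed by 0.30 and Wars by 0.48. Sars was lower with each construct, with log2 changes of -0.22, -0.28 and -0.39. Aars, for alanine, was higher with delta-IDR (0.24) and not called with full-length (0.03) or delta-CC-LCD (0.07). Of 15 other cytosolic synthetases, 12 were higher and 1 lower than control with full-length, 13 and 2 with delta-IDR, and 13 and 1 with delta-CC-LCD. The threonyl-tRNA synthetase gene Tars, for example, changed by 0.57, 0.72 and 0.65.

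Other genes of the same pathway, read against the same shares of all genes, did not share 1 direction either. Of 17 tested among the other ATF4 targets, 7 were higher and 7 lower with full-length, 6 and 6 with delta-IDR, and 6 and 11 with delta-CC-LCD. The largest rises among those with the smallest p with full-length were Ddit4, an inhibitor of mTORC1 signalling, from 43.6 to 354 CPM (log2 change 3.02), and the repressor gene Nfil3, from 41.6 to 234 CPM (2.49). Both the eIF2 kinases and the eIF2 and eIF2B subunits were mostly higher: 11 higher and 2 lower of 14 with full-length, and 12 higher and 1 lower with each of the other constructs. Glucocorticoid-responsive genes differed from control at the same time. With full-length, Sgk1 had a log2 change of 5.18, Tsc22d3 of 4.62, Fkbp5 of 2.39 and Per1 of 1.90, and 4 of the 5 genes of that list were higher with each construct. The part of glucocorticoid signalling in the members' changes was not tested.

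Between constructs, where all groups carried FRMD5, the members separated delta-IDR from the others. Against full-length, delta-IDR had 17 members higher and 5 lower (22 of 34 called, against 25.3% of all genes tested, 11.7% higher and 13.6% lower, with a median log2 change of 0.16 against 0.00). The groups did not overlap for 20 members, against 23.6% of all genes. By role, 8 of 10 enzymes, 4 of 7 transporters, 2 of 5 transcription factors, 2 of 5 synthetases and 1 of 7 effectors tested were higher. With libraries summed in pairs, 17 members were called, 14 higher and 3 lower, against 15.4% of all genes. Phgdh, the first enzyme of serine synthesis, was at 262, 278, 254 and 259 CPM with full-length and at 362, 375, 370.2 and 383 CPM with delta-IDR, a log2 change of 0.50 ± 0.04 (edgeR adjusted p = 1.17e-10). Psph, the last enzyme of that route, was at 38.2, 44.4, 37.8 and 44.9 CPM with full-length and 56.2, 61.0, 59.3 and 63.8 CPM with delta-IDR (log2 change 0.54 ± 0.06 (edgeR adjusted p = 6.94e-08)). For both genes every delta-IDR library lay above every full-length library. Chac1 had the largest rise at 0.74 ± 0.17 (edgeR adjusted p = 0.00138), from 3.40, 3.43, 4.05 and 2.91 to 6.76, 5.64, 5.44 and 5.13 CPM, and Slc7a3 (0.51), Cth (0.44) and Slc6a9 (0.35) followed. Aldh1l2 had the largest fall, -0.70 ± 0.16 (edgeR adjusted p = 0.00496), but its full-length libraries 1 and 3 stood well above libraries 2 and 4, and in pair sums it was not called (adjusted p = 0.104). Vldlr (-0.44), Slc7a11 (-0.43), Eif4ebp1 (-0.36) and Cebpg (-0.10) were lower too.

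The changes of Cebpg, Ddit3 (0.21) and Mthfd2 (0.17) between delta-IDR and full-length were the ones that did not pass when a library was left out. Those of Cebpg ended without full-length library 1 or 3 or delta-IDR library 1, 2 or 3, those of Ddit3 without full-length library 1, 2 or 4 or delta-IDR library 1, 2 or 3, and those of Mthfd2 without full-length library 1 or delta-IDR library 4. These 3, Aldh1l2 and Shmt2 were the calls lost in pair sums. Markers of other responses moved in the same comparison, in which 11.7% of all genes were higher and 13.6% lower. All 15 interferon-response genes were higher with delta-IDR than with full-length, with Ifi44 going from 4.9 to 102 CPM (log2 change 4.38), Ddx58 from 13.6 to 61.7 CPM and Irf7 from 3.9 to 31.9 CPM. Of 17 ER chaperone genes, 11 were higher and 1 lower, and Pdia4 changed by 0.42. Of 11 NRF2 targets, which respond to oxidative stress, 1 was higher and 7 lower, and all 6 HIF targets, which respond to low oxygen, were lower, with a median log2 change of -1.32. The eIF2 kinase gene Eif2ak2, which encodes PKR and is itself interferon-induced, went from 76.5 to 146 CPM (log2 change 0.93). Their part in the members' changes was not tested.

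Against delta-CC-LCD, delta-IDR had 16 members higher and 1 lower (17 of 34 called, against 22.3% of all genes, 11.6% higher and 10.7% lower, with groups apart for 16 members against 22.9%). Slc6a9 led, with 19.98, 18.0, 23.1 and 20.3 CPM for delta-CC-LCD and 29.4, 33.2, 31.1 and 31.1 CPM for delta-IDR (log2 change 0.62 ± 0.08 (edgeR adjusted p = 7.51e-07)). Slc7a3 (0.44), Cth (0.42), Phgdh (0.32), Pck2 (0.28) and Slc7a1 (0.24) were higher too, and Vldlr was lower (-0.38). Leaving out single libraries ended the calls of Cebpb, Gars, Slc3a2, Gpt2 and Nupr1. Cebpb was lost without delta-IDR library 2 or 3 or delta-CC-LCD library 2, 3 or 4, Gars without any library but delta-IDR 2, and Slc3a2 without delta-IDR library 1 or 2 or any delta-CC-LCD library. Gpt2 was lost without delta-CC-LCD library 1 or 2, and Nupr1 without delta-IDR library 2. In pair sums 12 members were called, against 13.2% of all genes, with Gars, Cebpb, Slc3a2, Gpt2 and Psph lost.

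Delta-CC-LCD differed least from full-length, with 2 members higher and 10 lower (12 of 34 called, against 19.3% of all genes, 8.42% higher and 10.9% lower, with groups apart for 8 members against 19.6%). When libraries were summed in pairs, 7 members were called, against 9.53% of all genes, and the calls of Aldh1l2, Slc6a9, Gpt2, Sars and Atf5 were lost. Aldh1l2 had the largest fall at -0.78 ± 0.16 (edgeR adjusted p = 0.00405), though its libraries spanned 299 to 423 CPM and 181 to 268 CPM, which left a narrow gap between the groups (adjusted p = 0.112 in pair sums). Eif4ebp1 (-0.37), Slc7a11 (-0.32), Nupr1 (-0.28), Slc6a9 (-0.27) and Cebpb (-0.23) were lower, and Psph (0.31) and Phgdh (0.18) were higher. Calls of Slc6a9, Gpt2, Sars and Atf5 ended in some fits that left out 1 library. Atf5 was lost without delta-CC-LCD library 3, and Slc6a9 without full-length library 1, 2 or 4 or delta-CC-LCD library 2 or 4. Gpt2 was lost without full-length library 1, 2 or 4 or delta-CC-LCD library 1 or 2, and Sars without library 1, 2 or 3 of either group.

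**Figure D3:**
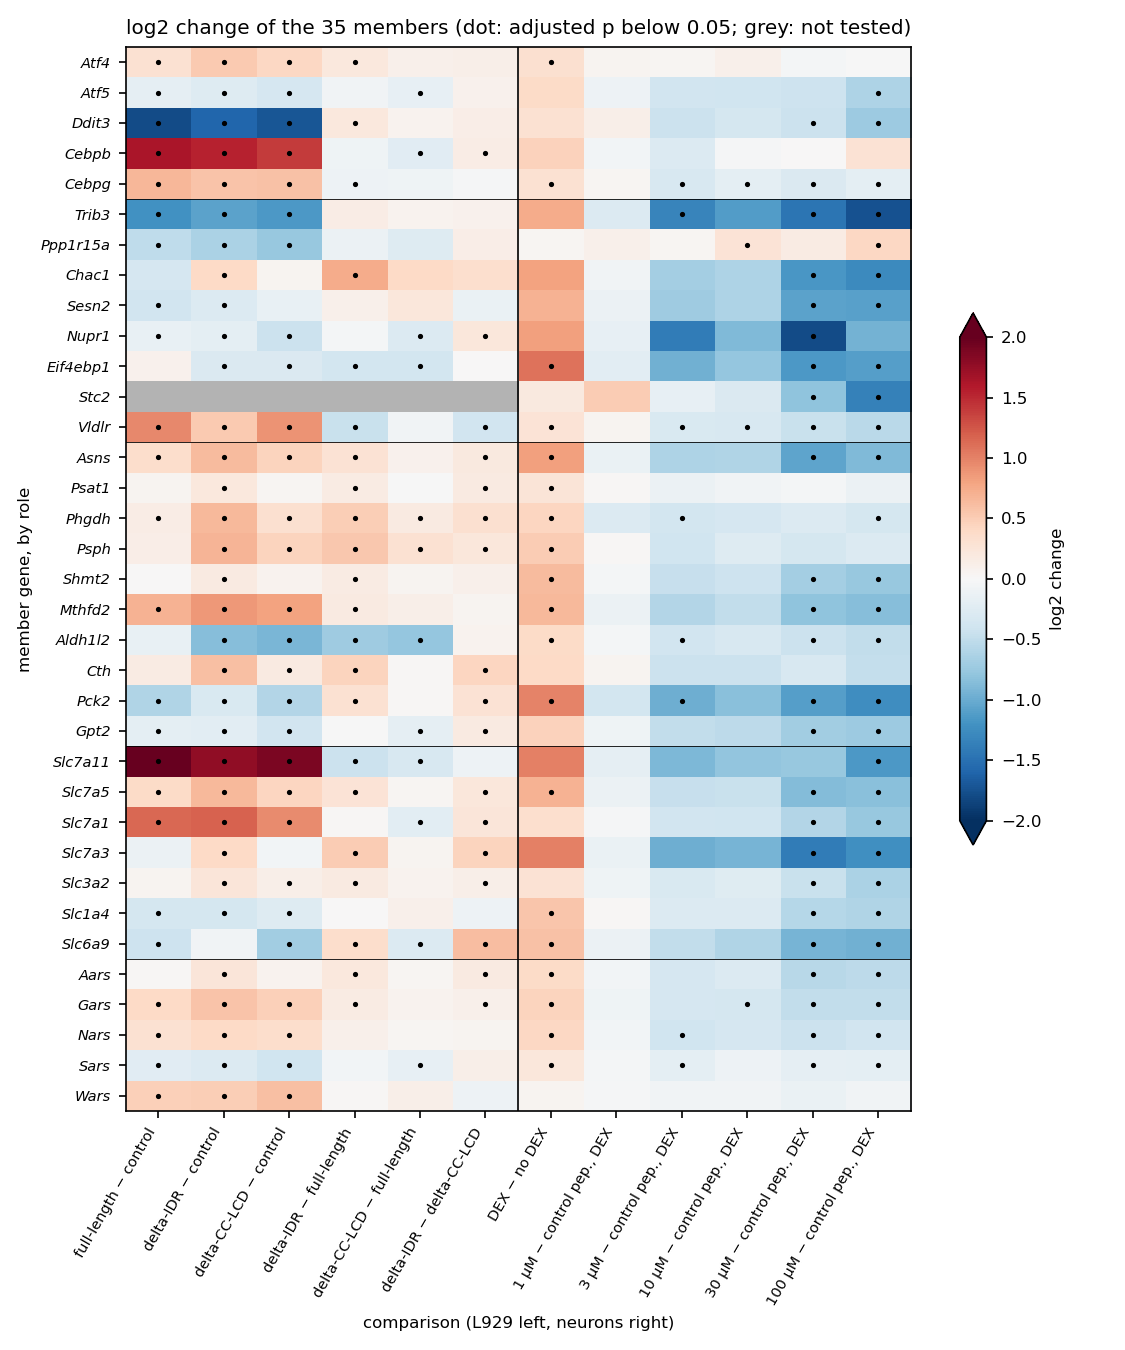
Log2 change of each of the 35 members (rows, by role) in the 12 comparisons between 2 groups (columns), on a colour scale from -2 to 2, with a dot where the edgeR adjusted p is below 0.05 and grey where a gene was not tested. The 3 L929 columns against control hold changes both ways in every role, and the DEX column of the neurons is positive for all 35 members while the 30 and 100 µM columns are negative for 33.

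In neurons given control peptide, all 35 members were higher on average with DEX than without, and 19 of them were called, all in that direction. That share, 54.3%, compares with 10.8% of all 17837 genes tested called in either direction, 5.44% higher and 5.35% lower. The members' median log2 change was 0.45, against -0.01 for all genes, and the 4 libraries of the 2 groups did not overlap for 28 members, against 16.1% of all genes. The calls held 8 of 10 enzymes, 4 of 5 synthetases, 3 of 7 transporters, 2 of 5 transcription factors and 2 of 8 effectors. When libraries were summed in pairs, Cebpg alone was called, and 1.63% of all genes were. Without no-DEX library 2 or 4, 12 members were called in place of 19. Over all fits without a single library, 6.38% to 9.87% of all genes were called.

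The interfering peptide was then compared with control peptide at 100 µM, both with DEX. Only the 100 µM group had the same amount of peptide as that control. At the lower doses the kind and the amount of peptide both differed from it and cannot be told apart. At 30 and 100 µM most members were lower, by a median of 0.56 and 0.63 on the log2 scale. Of 35 members, 25 were lower and 0 higher at 30 µM (against 15.9% of all genes called in either direction, 8.62% higher and 7.26% lower), and 27 were lower and 1 higher at 100 µM (against 23.4% in either direction, 11.9% higher and 11.5% lower). The groups did not overlap for 26 and 25 members, against 18.9% and 22.7% of all genes. At 3 µM, 8 members were lower (5.25% of all genes called, 2.88% higher and 2.37% lower), and at 10 µM 3 were lower and 1 higher (5.38% of all genes called, 3.17% higher and 2.21% lower). Groups did not overlap for 23 members at 3 µM, against 9.34% of all genes, and for 17 at 10 µM, against 11.1%, although fewer were called. At 1 µM 0 members were called by edgeR, with 2 at an unadjusted p below 0.05 and 0 by DESeq2, against 2.29% of all genes (1.4% higher and 0.891% lower), and groups did not overlap for 1 member, against 8.4%. With libraries summed in pairs, 0 members were called at 1, 3 and 10 µM, 2 at 30 µM (Cebpg and Vldlr) and 3 at 100 µM (Vldlr, Stc2 and Ppp1r15a), while 0.439%, 0.498%, 0.532%, 3.45% and 8.82% of all genes were called at 1, 3, 10, 30 and 100 µM. Apart from these 5 calls and that of Cebpg with DEX, every neuron call of a single member between 2 groups in the paragraphs that follow was lost in pair sums. The summed level of the 8 neuron markers moved as well: it was 3066 to 3261 CPM at 100 µM against 2780 to 3019 CPM with control peptide and DEX, without overlap, and 3 of the 8 were called higher (0 in pair sums). At 30 µM it was 2985 to 3129 CPM with 0 markers called, and between control peptide with and without DEX 0 of the 8 were called. The progenitor sum at 30 µM was 1739 to 1807 CPM, above the 1515 to 1712 CPM of control peptide with DEX. The endothelial and mural sum was 151.07 to 157.14 against 130.03 to 149.42 CPM. The microglia sum was 28.84 to 30.63 against 24.03 to 27.74 CPM. Of these markers, 2, 1 and 0 were called higher (0 in pair sums). Fibroblast, astrocyte and oligodendrocyte sums at 30 µM overlapped those of control peptide with DEX. Oligodendrocyte lineage markers summed to 79.3 to 88.0 CPM at 100 µM against 82.0 to 104 CPM, with 2 of 7 lower. The part of these cells in the members' changes was not tested.

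The counts at 3 and 10 µM also moved with the test and with single libraries. DESeq2 called 17 members at 3 µM and 12 at 10 µM, against 2.94% and 3.04% of all genes with any count. An edgeR fit of only the groups compared called 16 and 13, against 2.25% and 4.34% of the genes tested in it. At 3 µM, 2 members were called without control peptide DEX library 2 or 4 or 3 µM library 3, and 3 without 3 µM library 1. At 10 µM, 1 was called without control peptide DEX library 2, and 2 without library 4 of that group or 10 µM library 2, 3 or 4. Over the fits without a single library, 2.4% to 5.78% of all genes were called at 3 µM and 2.63% to 5.44% at 10 µM. Across the 5 doses, the slope of log2 level on log10 dose was below 0 and called for 20 members and above 0 for 1 (21 of 35, against 19.4% of all 17349 genes, 9.46% above and 9.91% below 0), and summing in pairs left 3, Vldlr, Stc2 and Slc6a9, against 7.71% of all genes.

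**Figure D4:**
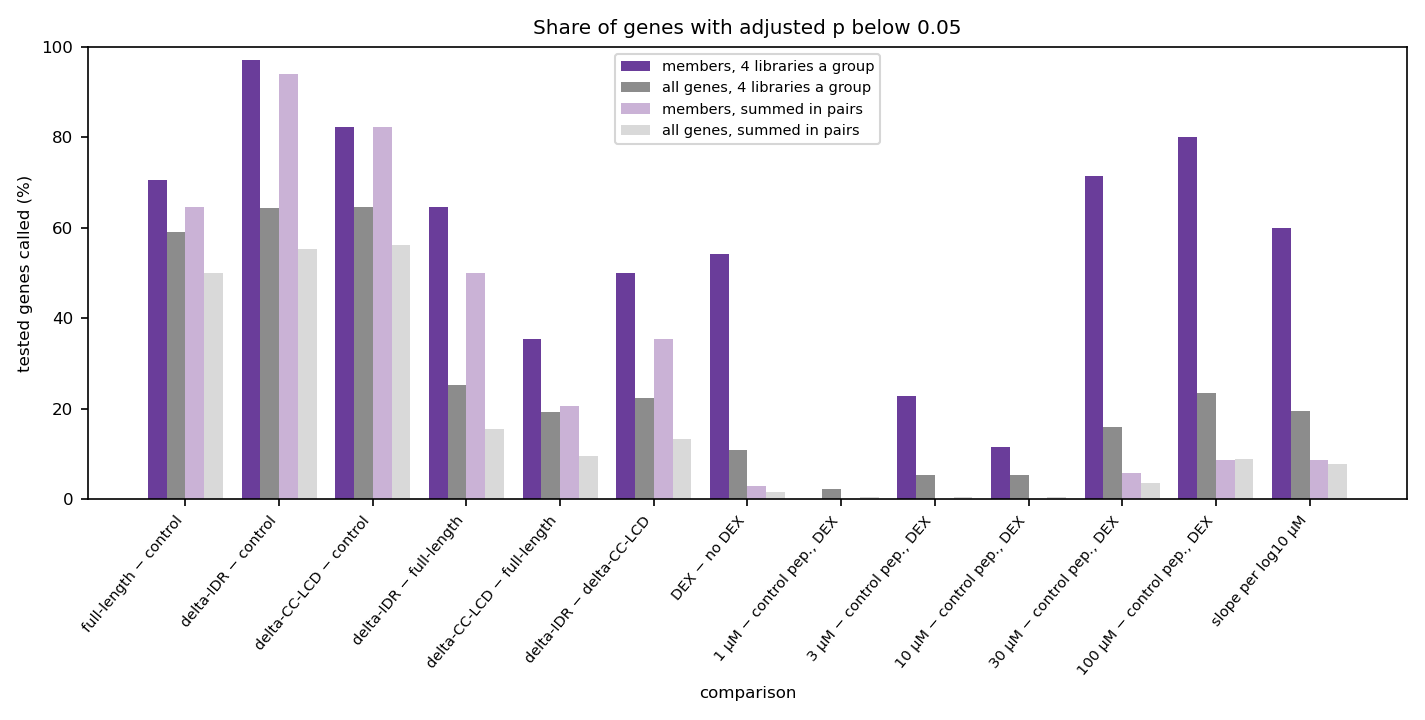
Percent of members and percent of all tested genes called at an edgeR adjusted p below 0.05 in the 12 comparisons and the dose slope, with the 4 libraries of a group taken separately and summed in pairs. In neurons with DEX 54.3% of members and 10.8% of all genes are called from separate libraries, and in the pair sums 1 member and 1.63% of all genes.

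The control peptide group with DEX enters both the comparison for DEX and those for the peptide, so a level that is high in that group moves them in opposite directions at once. Set against that group's mean as 100%, the members' median level was 73.3% without DEX, 96.0% at 1 µM, 75.9% at 3 µM, 78.2% at 10 µM, 67.8% at 30 µM and 64.6% at 100 µM. For 32 of 35 members the 2 highest of the 7 group means were those of control peptide with DEX and of 1 µM. The lowest mean was at 30 or 100 µM for 27, and 26 had a lower mean at 100 µM with DEX than without DEX. These levels and orders were taken over the members only. They do not show whether other neuron genes were ordered likewise.

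Atf4 mRNA was 265, 259.5, 263 and 272 CPM in libraries 1 to 4 without DEX and 318, 342, 311 and 348 CPM with DEX, a log2 change of 0.32 ± 0.10 (edgeR adjusted p = 0.0404). Every library with DEX stood above every library without it, yet the call ended when any library but control peptide DEX library 3 was left out. With interfering peptide Atf4 was 306, 330.4, 305 and 337 CPM at 30 µM and 382, 277, 374 and 278 CPM at 100 µM, a log2 change of -0.01 at the highest dose, which was not called, and the 100 µM libraries straddled those of control peptide with DEX. The dose groups between had means of 341, 340.5 and 352 CPM at 1, 3 and 10 µM. Cebpg rose with DEX from 149, 152, 153 and 143 to 171, 192, 179 and 196 CPM (log2 change 0.31 ± 0.06 (edgeR adjusted p = 0.000262)), the call that pair sums kept. It was at 153, 151, 145 and 139 CPM at 3 µM and 171, 156, 169 and 149.8 CPM at 100 µM, with log2 changes of -0.33 and -0.19, and -0.20 and -0.30 at 10 and 30 µM. The 100 µM call was lost without control peptide DEX library 4 or 100 µM library 4, and that at 10 µM without library 2 or 4 of either group.

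Ddit3 was at 37.7, 34.7, 33.0 and 34.3 CPM without DEX and 39.6, 47.3, 37.9 and 46.9 CPM with DEX, a log2 change of 0.30 ± 0.14 (edgeR adjusted p = 0.175), which was not called although the groups did not overlap. At 100 µM it was at 30.8, 22.3, 31.6 and 18.8 CPM with a log2 change of -0.73, below every control peptide DEX library. At 30 µM its change was -0.43, a call lost without control peptide DEX library 2 or 4 or 30 µM library 1 or 3. Atf5 had a change of 0.39 with DEX and -0.62 at 100 µM, the latter lost without library 2 or 4 of either group. Cebpb was scarce in neurons, with group means between 2.52 and 4.21 CPM, and was not called in any neuron comparison.

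**Figure D5:**
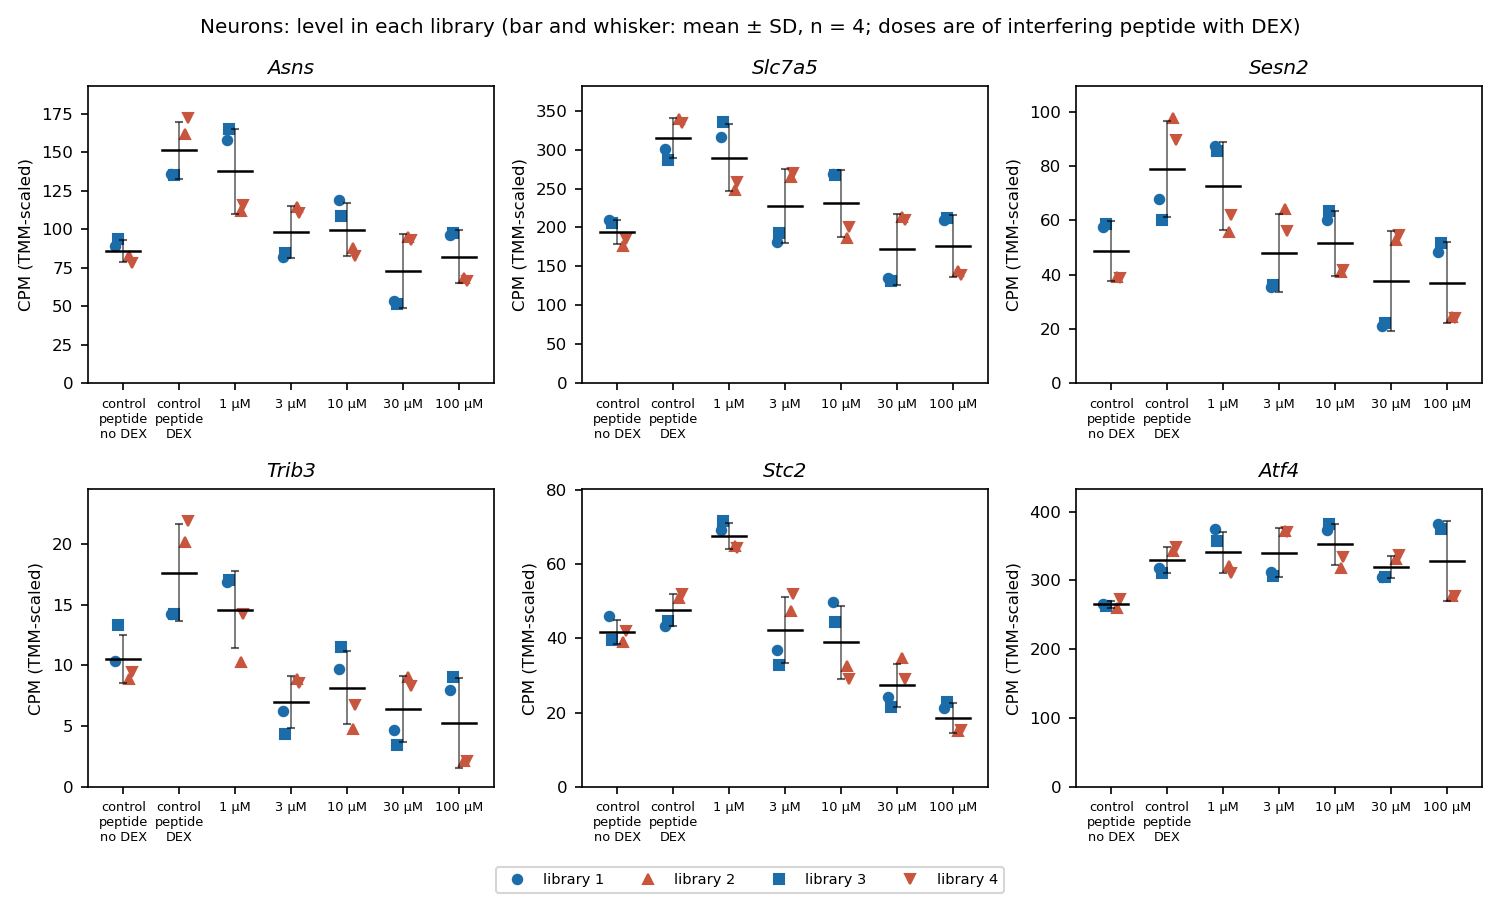
CPM of Asns, Slc7a5, Sesn2, Trib3, Stc2 and Atf4 in each of the 28 neuron libraries (points, shaped by library number), by treatment, with bars and whiskers for the mean ± SD of 4 libraries. Asns is highest with control peptide and DEX (mean 151 CPM) and lowest at 30 µM (73.2 CPM), Atf4 has means of 319.6 to 352 CPM in all DEX groups, and libraries 1 and 3 part from 2 and 4 within groups.

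Among the effectors in neurons, Trib3 was at 10.3, 8.86, 13.3 and 9.45 CPM without DEX and 14.3, 20.2, 14.3 and 21.9 CPM with DEX, a log2 change of 0.75 ± 0.35 (edgeR adjusted p = 0.176) that was not called. It was at 6.22, 8.86, 4.36 and 8.52 CPM at 3 µM, 4.68, 9.02, 3.44 and 8.32 CPM at 30 µM and 7.96, 2.08, 9.01 and 2.10 CPM at 100 µM. All libraries at these doses lay below all control peptide DEX libraries, and the log2 change was -1.32 at 3 µM, -1.47 ± 0.37 (edgeR adjusted p = 0.00934) at 30 µM and -1.74 ± 0.38 (edgeR adjusted p = 0.00202) at 100 µM. The 3 µM call was lost without control peptide DEX library 2 or 4 or any 3 µM library. Stc2, a secreted glycoprotein gene induced by stress, followed a different course: 43.4, 50.9, 44.8 and 51.9 CPM with control peptide and DEX, 69.3, 65.0, 71.6 and 64.4 CPM at 1 µM and 21.3, 15.02, 22.8 and 15.3 CPM at 100 µM. The 1 µM libraries lay above and the 100 µM libraries below every control peptide DEX library, with log2 changes of 0.50 ± 0.16 (edgeR adjusted p = 0.127) at 1 µM, not called, and -1.36 ± 0.18 (edgeR adjusted p = 1.2e-05) at 100 µM. Its slope was -0.87 ± 0.09 (edgeR adjusted p = 1.88e-06) per log10 µM, the steepest of the members, and its 100 µM and slope calls stood in pair sums too.

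Chac1 was at 49.2, 74.4, 48.5 and 67.1 CPM with control peptide and DEX, 18.0, 37.3, 12.8 and 37.9 CPM at 30 µM and 35.7, 13.2, 32.4 and 17.2 CPM at 100 µM, with log2 changes of -1.17 and -1.28. The groups did not overlap, and libraries of the lower pair at each high dose lay near 13 to 18 CPM. Sesn2 went from 67.9, 97.7, 60.2 and 89.6 CPM to 20.9, 52.7, 22.3 and 54.5 CPM at 30 µM and 48.3, 24.5, 51.5 and 23.98 CPM at 100 µM, log2 changes of -1.07 and -1.09. Eif4ebp1 was the member with the largest called rise with DEX: 17.2, 11.9, 11.9 and 10.2 CPM without and 25.1, 33.0, 19.9 and 30.5 CPM with DEX, a log2 change of 1.08 ± 0.33 (edgeR adjusted p = 0.0354). It was lower with the interfering peptide, by a log2 change of -1.14 at 30 µM and -1.10 at 100 µM, where its libraries were at 20, 7.62, 16.03 and 6.88 CPM. Leaving out no-DEX library 2, 3 or 4 or control peptide DEX library 1, 2 or 4 ended the DEX call of Eif4ebp1. At 30 µM the calls of Eif4ebp1 and Sesn2 were lost without control peptide DEX library 2 or 4 or 30 µM library 1 or 3, and that of Chac1 without control peptide DEX library 2 or 30 µM library 1 or 3. At 100 µM those of Eif4ebp1 and Sesn2 were lost without control peptide DEX library 2 or 100 µM library 2 or 4.

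Vldlr and Ppp1r15a kept calls in pair sums at 100 µM and went opposite ways. Vldlr was at 123, 114, 127 and 123 CPM without DEX, 136, 156, 137 and 163 CPM with DEX and 101, 96.0, 111 and 100.1 CPM at 100 µM. Its log2 change was 0.28 with DEX, then -0.31, -0.33, -0.45 and -0.54 at 3, 10, 30 and 100 µM, and it was lower than with control peptide at every dose but 1 µM (0.06, not called). Ppp1r15a was at 32.3, 29.8, 29.6 and 33.4 CPM with control peptide and DEX and 45.6, 38.0, 44.2 and 39.0 CPM at 100 µM, with every 100 µM library higher. It was the only member called higher with the peptide in the edgeR fit of all groups, by 0.41 ± 0.08 (edgeR adjusted p = 6.9e-05) at 100 µM and by 0.28 at 10 µM. With DEX it was not called (0.04). The 10 µM call was lost without control peptide DEX library 2 or 3 or 10 µM library 1 or 3. Nupr1 had group means of only 0.466 to 1.62 CPM in neurons, and its call at 30 µM (log2 change -1.78 ± 0.47 (edgeR adjusted p = 0.00676)) was lost without control peptide DEX library 4.

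Of the 10 enzymes, 8 rose with DEX. Asns was at 89.2, 82.5, 93.8 and 78.0 CPM without DEX and 136, 162, 136 and 172 CPM with DEX, all 4 higher, a log2 change of 0.82 ± 0.20 (edgeR adjusted p = 0.0109). At 1 µM it was at 158, 112, 165 and 116 CPM, overlapping the control peptide DEX libraries. It was at 53.4, 94.7, 51.1 and 93.3 CPM at 30 µM and 96.1, 68.2, 97.9 and 66.2 CPM at 100 µM, below all of them, with log2 changes of -1.05 and -0.88. Pck2 rose from 23.97, 17.4, 24.4 and 15.4 to 33.0, 48.3, 34.9 and 45.8 CPM with DEX (log2 change 1.00 ± 0.25 (edgeR adjusted p = 0.0137)) and was at 17.4, 27.3, 14.5 and 22.9 CPM at 3 µM and 22.4, 14.7, 21.2 and 10.4 CPM at 100 µM, with log2 changes of -0.97 and -1.24. The 3 µM call was lost without control peptide DEX library 2 or 4 or 3 µM library 1 or 3. Mthfd2 was at 62.7, 51.3, 59.1 and 53.2 CPM without and 78.9, 102, 80.1 and 95.2 CPM with DEX (log2 change 0.65 ± 0.19 (edgeR adjusted p = 0.0293)), a call lost without no-DEX library 2, 3 or 4 or control peptide DEX library 2 or 4. Shmt2 was at 86.6, 78.1, 79.0 and 83.7 CPM without and 124, 138, 117 and 132 CPM with DEX (log2 change 0.64 ± 0.14 (edgeR adjusted p = 0.00622)). At 100 µM Mthfd2 changed by -0.85 and Shmt2 by -0.76.

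The serine-synthesis genes were higher with DEX as well, Psph by 0.51, Phgdh by 0.43 and Psat1 by 0.26 on the log2 scale. Of these, Phgdh was called at 3 µM (-0.36) and 100 µM (-0.35), with libraries at 122, 142, 115 and 137 CPM in control peptide with DEX and 92.0, 115, 84.6 and 110.0 CPM at 3 µM. Leaving out control peptide DEX library 2 or 4 ended both calls, as did 3 µM library 1 or 3 and 100 µM library 2 or 4 in turn. Aldh1l2 rose by 0.38 with DEX and was called lower at 3, 30 and 100 µM (-0.38, -0.42 and -0.49). Its DEX call was lost without no-DEX library 2, 3 or 4 or control peptide DEX library 1 or 4, its 3 µM call without any library but 3 µM library 2, and its 30 µM call without 30 µM library 1 or 3. Gpt2 was not called with DEX (0.46) and was lower at 30 and 100 µM (-0.70 and -0.73). Cth, near 5 to 7 CPM in each group, was not called in any neuron comparison.

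All 7 transporters were lower at 100 µM, and with DEX the libraries of all 7 lay above those without. Slc7a5 was at 209, 177, 206 and 185 CPM without and 300.2, 339, 286 and 334 CPM with DEX, a log2 change of 0.70 ± 0.19 (edgeR adjusted p = 0.0188) that was lost without no-DEX library 2. Its partner Slc3a2 was not called with DEX (0.29), and at 100 µM Slc7a5 changed by -0.84 and Slc3a2 by -0.63. Slc1a4 (0.55) and Slc6a9 (0.58) were also higher with DEX, the latter call lost without any library but no-DEX library 1. Slc7a3 was at 23.9, 27.4, 19.0 and 27.1 CPM with control peptide and DEX, 5.64, 14.8, 3.52 and 12.8 CPM at 30 µM and 13.4, 7.26, 14.0 and 6.88 CPM at 100 µM. All libraries at both doses were lower, with log2 changes of -1.40 ± 0.38 (edgeR adjusted p = 0.0138) and -1.23 ± 0.37 (edgeR adjusted p = 0.019), calls that were lost without 30 µM library 1 or 3 and 100 µM library 2 or 4. Slc7a11 was at 12.9, 23.4, 17.4 and 23.9 CPM with control peptide and DEX and 10.9, 5.46, 12.6 and 5.94 CPM at 100 µM, a log2 change of -1.15 ± 0.35 (edgeR adjusted p = 0.0209) that was lost without library 2 or 4 of either group. The log2 changes of Slc7a3 (1.01) and Slc7a11 (1.00) with DEX were close to the largest that was called, but were not called themselves. Slc7a1 changed by -0.76 at 100 µM, and the slope of Slc6a9 over dose, -0.42 per log10 µM, was called in pair sums too.

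Of the synthetases, Gars, Nars, Aars and Sars rose with DEX, by 0.45, 0.41, 0.38 and 0.22 on the log2 scale, and had log2 changes of -0.50, -0.38, -0.52 and -0.20 at 100 µM. Nars was at 288, 339, 286 and 310.0 CPM with control peptide and DEX and 227, 234, 219 and 248 CPM at 3 µM, a change of -0.40, and Gars was at 263, 316, 274 and 291 CPM and 246, 200.1, 241 and 208 CPM at 10 µM, a change of -0.35. In both cases the groups did not overlap. Sars was lower at 3 µM too (-0.19). The 3 µM call of Nars was lost without control peptide DEX library 2 or 4 or 3 µM library 1, 2 or 3, that of Sars without control peptide DEX library 2 or 4 or 3 µM library 3, and the 10 µM call of Gars without library 2, 3 or 4 of either group. With DEX, the call of Aars was lost without no-DEX library 2 or 4 or control peptide DEX library 1, 2 or 4, and that of Nars without no-DEX library 4 or control peptide DEX library 2. Wars, which is also induced by interferon, was not called in any neuron comparison (0.06 with DEX and -0.07 at 100 µM).

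Genes of the same pathway outside the 35 members were counted the same way. Of all 17837 genes tested, 5.44% were higher and 5.35% lower with DEX, 8.62% and 7.26% at 30 µM, and 11.9% and 11.5% at 100 µM. Of 16 other ATF4 targets tested in neurons, 8 were higher and 1 lower with DEX, and 2 were higher and 7 lower at both 30 and 100 µM. Aldh18a1, the proline-synthesis gene, rose with DEX from 124 to 184 CPM (log2 change 0.57), and the mitochondrial folate enzyme gene Mthfd1l fell by 0.94 at 100 µM, from 22.5 to 11.7 CPM. Slc38a2, a neutral amino-acid transporter gene, rose with DEX from 269 to 348 CPM and rose again at 100 µM to 432 CPM (log2 changes 0.37 and 0.31). Of 15 other cytosolic synthetases, 9 were higher and 0 lower with DEX, 1 higher and 9 lower at 30 µM, and 0 higher and 9 lower at 100 µM. Cars, which charges cysteine tRNA, went from 81.7 to 137 CPM with DEX and was at 81.8 CPM at 100 µM. Of 17 mitochondrial synthetases, 0 were higher and 1 lower with DEX, and 0 were higher and 3 lower at 100 µM. Of 14 eIF2 kinases and eIF2 factors, 2 were higher with DEX and 1 was higher at 100 µM. Of 12 other folate, serine and glycine enzymes 1 was higher and 1 lower with DEX, and of 15 other amino-acid transporters 1 was higher and 2 lower. In pair sums, which were added for these lists, the markers and the motif groups after the data were seen, 2 other ATF4 targets, 3 cytosolic synthetases, 1 of the eIF2 group and 0 mitochondrial synthetases were called for DEX, and 3, 3, 1 and 1 at 100 µM. At 30 µM 0 were called in each of these 4 lists. Of all genes, pair sums called 1.63% for DEX, 3.45% at 30 µM and 8.82% at 100 µM. Slc38a2 was called in pair sums for DEX and at 100 µM and Mthfd1l at 100 µM, while Aldh18a1 and Cars were called in neither.

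Lists of other stress responses gave these counts, to be read against the shares of all genes just given. At 1 µM those shares were 1.4% higher and 0.891% lower, and 0.439% in pair sums. With DEX, 0 of 10 NRF2 targets and 0 of 5 HIF targets were called by edgeR, and 1 of 17 ER chaperones was higher. At 100 µM, 4 ER chaperones were higher and 2 lower, 2 NRF2 targets were higher and 3 lower, and 4 of 5 HIF targets were lower, while at 1 µM all 5 HIF targets were higher. In pair sums, 0 genes of these lists were called for DEX, 3 HIF targets were higher at 1 µM, and at 100 µM 0 ER chaperones, 3 NRF2 targets and 2 HIF targets were called. The part of these responses in the members' changes was not tested. Of the 5 glucocorticoid-responsive genes, 1 was higher and 1 lower with DEX in neurons: Per1 changed by 0.31 and Nr3c1, the glucocorticoid receptor gene, by -0.32, while Fkbp5 stood at 102 CPM with and 101 CPM without DEX. Neither call stood in pair sums.

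Members with and without the motif in their promoter window are set side by side as a description. At 100 µM, 9 of the 10 members with the motif were called lower, with a median log2 change of -0.91, and 13 of the 18 matched members without it, with a median of -0.62. At 30 µM the counts were 9 of 10 and 11 of 18, and with DEX 6 of 10 and 9 of 18 were called higher, with medians of 0.78 and 0.36. Of all 17837 genes tested, 11.5% were lower at 100 µM, 7.26% lower at 30 µM and 5.44% higher with DEX. In pair sums 1 of 10 and 1 of 18 were lower at 100 µM, 1 of 10 and 1 of 18 at 30 µM, and 0 of 10 and 1 of 18 were higher with DEX. In either direction, pair sums called 8.82%, 3.45% and 1.63% of all genes in that order. In L929, full-length against control gave 4 higher and 4 lower of 10 with the motif and 6 higher and 7 lower of 17 without it. Of all genes, 30.3% were higher and 28.7% lower there. The 6 sequences printed above, those of Trib3, Chac1, Asns, Pck2, Slc7a11 and Vldlr, were picked partly for the large changes of their genes. That all 6 genes were lower at 100 µM in neurons, as were 27 of all 35 members, is therefore not a separate result. In L929 cells with the full-length construct Slc7a11, Vldlr and Asns were higher than control, Trib3 and Pck2 lower, and Chac1 not called (-0.34).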

How the data were processed

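The authors deposited raw, whole-number read counts per gene in a table for L929 and another for neurons, 16 and 28 columns matched to samples by library name, with 0 columns of other samples and 0 rows without a gene identifier. The delta-IDR columns carry the letters IDRD where the labels have DIDR. Per the submitters' processing notes, reads were aligned with HISAT2 2.2.1 to mm10. How reads were counted (the tool, its annotation and its strand setting) is not stated in these sources, so overlapping or antisense genes cannot be told apart, and reads without molecular identifiers make every count limit one of counting error only. Of the 36 member rows, 35 had the start and end of GENCODE M21.

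Each table was filtered with filterByExpr (14118 genes in L929, 17837 in neurons, 17349 for the dose slope), scaled by TMM and fitted with edgeR 4.0.16 in R 4.3.3 (robust quasi-likelihood, every group of that table, group as the only term), giving 12 comparisons between 2 groups and a slope. The common biological coefficients of variation were 0.0665 (L929) and 0.0661 (neurons). Adjusted p values are over all genes tested. The same steps were tested on simulated data. Alternatives tried were a replicate block, DESeq2 1.42.0, size factors by RLE, no filter, only the groups compared, dose as a rank, each library left out, and libraries summed in pairs. All members may be named, with values in every library for up to 6 of the largest called changes in each direction of a comparison, and for Atf4 and Ddit3. At most 4 called genes of another list are named, by smallest p. Members and lists were chosen with earlier results of these data known. Promoter windows come from RefSeq (GRCm38.p6), which matched 28 of 35 members. No sequence of 1 member was printed because of its chromosome.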

Additional observations from a re-analysis of the deposited data

Results flagged for a closer look

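In 3 of 315 groups of 4 libraries examined over the 29 members so tested, a library stood farther from the others than a limit that chance passes in about 1 group in 20. Pck2 with the full-length construct in L929 was 150.7 CPM in library 2, against 137.3 CPM in the nearest other library. Ddit3 with delta-IDR was 19.24 CPM in library 4, against 21.85 CPM in the nearest. Slc7a3 with full-length was 27.36 CPM in library 2, against 24.07 CPM in the nearest. All 3 are in L929, and none changes a direction given above. Where libraries split into pairs, as in the neuron groups, the extreme library has a near neighbour and the limit is harder to pass. The lack of neuron groups here therefore does not show that those libraries agree.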

How the results depend on the processing

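No called change of a member reversed its direction under the alternatives run, which were not run for uncalled values: of the alternatives to called changes, 3229 stayed past the threshold and 397 did not. Summing libraries in pairs, which leaves 2 units a group and so fewer degrees of freedom, lowered the neuron counts: 1 member called for DEX, 0 at 3 and 10 µM, 2 at 30 µM, 3 at 100 µM and 3 for the slope, with 7 for delta-CC-LCD against full-length. At 3 µM, DESeq2 called 17 members and a fit of only the groups compared 16, and at 10 µM 12 and 13. Of all genes, the 2 fits called 2.94% and 2.25% at 3 µM and 3.04% and 4.34% at 10 µM. At 1 µM the fit of only the groups compared called 1 member, against 2.08% of all genes. Leaving out each library gave 23 to 26, 31 to 32 and 27 to 29 members for full-length, delta-IDR and delta-CC-LCD against control, 19 to 22, 9 to 13 and 13 to 19 for delta-IDR and delta-CC-LCD against full-length and delta-IDR against delta-CC-LCD, and in neurons 12 to 18 for DEX, 0 to 0 at 1 µM, 2 to 9 at 3 µM, 1 to 5 at 10 µM, 17 to 26 at 30 µM, 21 to 29 at 100 µM and 15 to 23 for the slope. In the L929 comparisons with control, DESeq2 called 29.3% to 32.6% of all genes with any count. Over genes not filtered by count, edgeR called 30.3% to 33.7%. The 59.1% to 64.6% given above are shares of the filtered genes, so they are not comparable with the DESeq2 shares.

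Groups share replicate numbers. Deviations of same-numbered libraries correlated by -0.284 to 0.236 in L929 (over 0.1 in 6 of 24 pairs) and -0.329 to 0.305 in neurons (20 of 84). Of the libraries, 3 of 16 and 10 of 28 correlated best with their own number. These values cannot tell whether same-numbered libraries belong together, because the gap between library pairs in neurons changed direction from group to group. With the replicate block, 5 members were called at 3 µM, 16 for DEX, 3 at 10 µM, 24 at 30 µM, 28 at 100 µM and 18 for the slope. Of all genes, it called 4.78%, 10.3%, 4.68%, 15.1%, 22.5% and 17.9% in that order. Depth limits Nupr1 and Cebpb in neurons and Chac1 in L929, all at a few CPM.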
